A study of Trametes coccinea with 18 samples.

Results

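In cultures of the white-rot fungus Pycnoporus coccineus CIRM-BRFM 310 (Pycco 310), 36 of 12690 gene models had their lowest transcript level on pine wood by a wide margin while being transcribed on every other carbon source. The level used here is the log2 read count, that is log2 of 1 plus the count divided by the library's size factor, averaged over the 3 libraries of a carbon source. A gene model was taken when its level on pine lay at least 1.5 log2 below its level on each of the other 5 carbon sources and its level was at least 6 on each of those 5. These levels chose the members, so all values on pine are given as a description and no test of pine against another carbon source is read from them. RNA was sequenced from shaken liquid cultures at 30 °C and 120 rpm on day 3, with 3 cultures for each of 6 carbon sources and 18 libraries in all. The maltose medium held 20 g/l of maltose, a sugar that fungi take up readily. The other media held 2.5 g/l of maltose together with 15 g/l of Avicel (microcrystalline cellulose), ground aspen (a hardwood), ground wheat straw (a grass), ground pine (a softwood) or a mixture of xylan and galactomannan (hemicelluloses, named xylan-galactomannan here). The pine medium therefore differed from the other 4 substrate media in the substrate alone, whereas in any comparison with the maltose medium the substrate and the amount of maltose cannot be told apart. All libraries come from 1 strain, and in RNA of a whole culture fewer transcribing hyphae and less transcript per hypha cannot be told apart.

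White-rot fungi break down cellulose, hemicelluloses and lignin with secreted enzymes, and the genes for many of these enzymes are transcribed at a low level on simple sugars and at a high level on plant material. Softwoods such as pine differ from hardwoods and grasses in having lignin built almost wholly of guaiacyl units and hemicellulose rich in galactoglucomannan, and pine wood also holds resin acids, terpenes and other extractives that can be toxic to fungi. The study selected genes with high transcription on plant substrates, and the genes described here show the reverse on pine. The members carry protein numbers of the Pycco1 genome and no gene symbols. Their functions are not given in the sources used here, so each is described by its number and its values and none is assigned a role.

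The libraries held between 26370228 and 42190522 counts. Correlations of log2 read counts over gene models were between 0.966 and 0.989 for libraries of the same carbon source. One library had labels that disagree, since a free-text label of xylan-galactomannan replicate 3 names wheat straw while its title and its listed carbon source name xylan-galactomannan. That library correlated at 0.980 and 0.966 with the other xylan-galactomannan libraries and at 0.964 to 0.965 with the wheat straw libraries, whereas the other xylan-galactomannan libraries correlated with wheat straw at 0.921 to 0.943. It was kept in its listed group, and the counts, fold changes and levels that rest most on it are also given without it. The size factors of the pine libraries were low for their totals, so the choice of scaling bears on every level on pine. Over the 8671 gene models with a level of at least 6 on the other 5 carbon sources, the median difference between pine and the mean of the others was 0.02 log2 with size factors, -0.01 with TMM factors (edgeR's trimmed means) and -0.46 with library totals. The median of the same difference over the members was -2.21 with size factors.

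The members were spread over a wide range of levels, and on pine they were all lower. Their median log2 read count was 10.18 on Avicel, 9.91 on maltose, 9.86 on xylan-galactomannan, 9.51 on wheat straw and 9.24 on aspen, against 7.66 on pine. Without xylan-galactomannan replicate 3 the median on that medium was 9.93, so its order with maltose turned on that library. Levels on pine ran from 3.86 to 11.63. The gap, which is the difference between pine and the lowest of the other 5 levels, was between 1.51 and 2.51 log2 (2.84-fold to 5.68-fold) with a median of 1.69. Most members lay close to the limit, and only the gap of 1477860 exceeded 2.0, the next being 1.88. That largest gap fell to 1.51 without pine replicate 2. In 35 of 36 members every pine library lay below every library of the other carbon sources, beside 8.75% of the 11168 gene models tested, a separation that the rule itself favours. The exception was 1370466, in which pine replicate 1 and xylan-galactomannan replicate 2 both had a log2 read count of 8.66. In the edgeR fit, all 36 were called lower on pine against each of the other 5, beside 2.37% of all gene models tested, and since the rule used these contrasts nothing is read from that count.

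**Figure D1:**
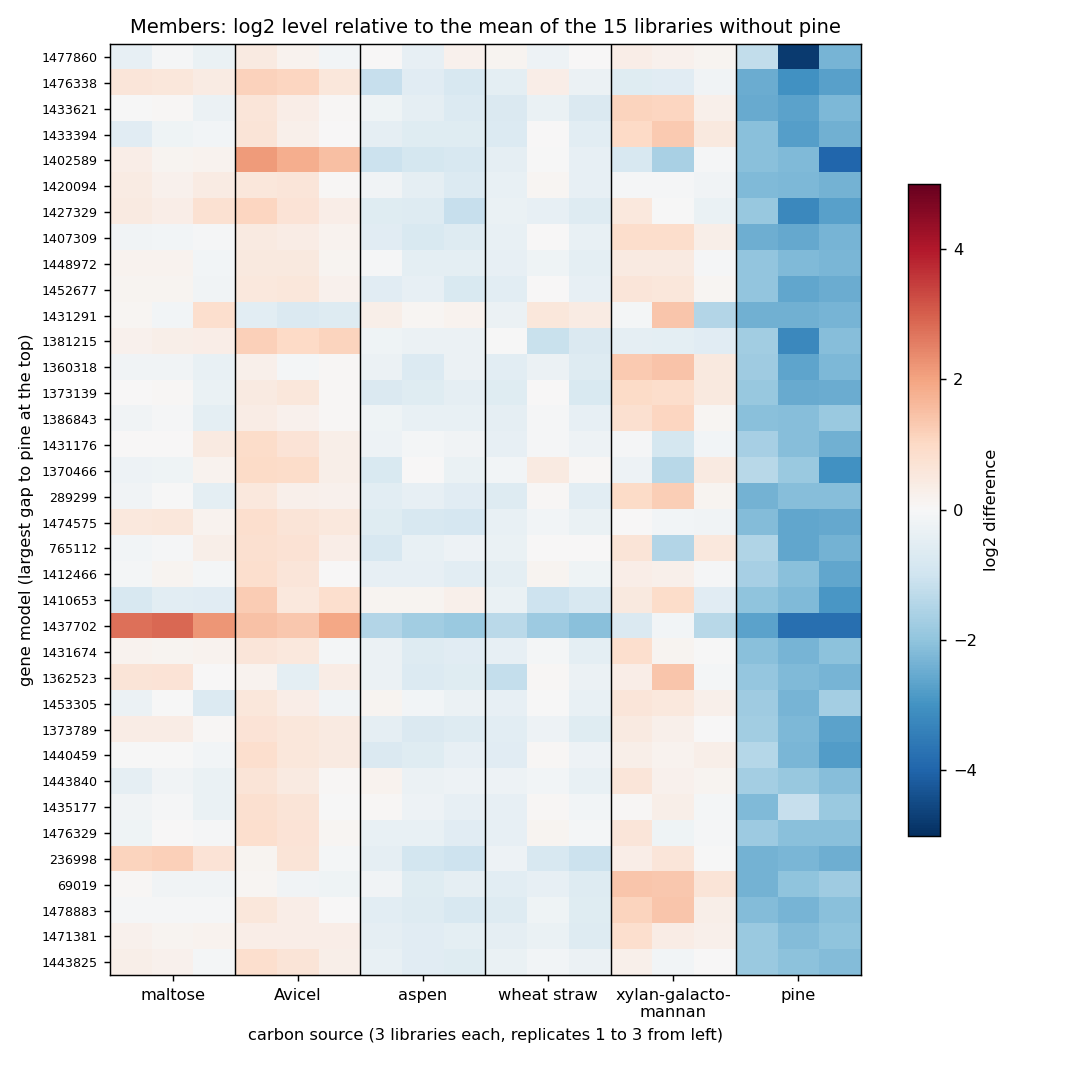
Log2 read count of each of the 36 members (rows, largest gap at the top) in each of the 18 libraries (columns, replicates 1 to 3 of each carbon source from the left), as the difference from the member's mean over the 15 libraries without pine. Blue marks lower and red higher values, and the pine columns are blue in all rows. Several rows are also blue in other libraries, among them 1437702 on aspen and wheat straw, and 1402589 and 765112 in xylan-galactomannan replicate 2.

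The margin was not the same in the 3 pine cultures. Pine replicate 1 was the highest of the pine libraries in 25 members, replicate 2 the lowest in 18 and replicate 3 the lowest in 14. Without pine replicate 1 the rule found 77 gene models, 34 of them among the 36, whereas leaving out any other library gave between 33 and 41. In all, 18 of the 36 members met the rule whichever library was left out. The median SD of the members over the pine libraries was 0.31 log2, the same as the 0.31 of all 8671 gene models. The members just inside the limit were 1443825, with a gap of 1.508, 1471381, with 1.509, and 1478883, with 1.519. Just outside it were 1435109 at 1.482, 1454665 at 1.477 and 1432536 at 1.472, so the limit divides a continuous distribution. With a gap of at least 1.0 the rule found 251 gene models. Scaled by library totals it found 168.

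Being lowest on pine was far more frequent than having a large gap there. Of the 8671 gene models that were transcribed on the other 5 carbon sources, 2174 (25.1%) were lowest on pine, and 0.415% were members. The level of 6 was asked on those 5 and not on pine, which favours pine as the lowest. The 25.1% was computed with size factors only. The same rule turned to the other carbon sources found 330 gene models lowest on maltose, 83 on Avicel, 67 on xylan-galactomannan, 34 on wheat straw and 1 on aspen. A further 27 gene models had the gap on pine and fell short of the level of 6 on some other carbon source.

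The largest gap, 2.51 log2, belonged to 1477860, the member with the lowest level on the other carbon sources. Its log2 read counts were 6.22, 6.58 and 6.29 on maltose, 7.07, 6.81 and 6.49 on Avicel, 6.64, 6.23 and 6.87 on aspen, 6.77, 6.37 and 6.64 on wheat straw and 6.97, 6.86 and 6.76 on xylan-galactomannan. On pine they were 5.39, 1.86 and 4.32. This gene model was thus almost level over the other 15 libraries, and its pine libraries disagreed by more than its gap, with an SD of 1.81 log2. It was the only member with a raw count under 20 in a pine library, the lowest being 2, so its level on pine is the least precise of all members. Its gap and its rank rest on pine replicate 2. Without that library the gap was 1.51 log2 (2.84-fold), place 28 of the 36. With the log2 of the replicate mean in place of the mean of log2 values it was 1.92, and with the median of the 3 libraries 1.97, behind 1427329 at 2.07, 765112 at 2.02 and 1437702 at 1.98.

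Of the other members with large gaps, several had tight values on pine. 1433621 had log2 read counts of 8.13, 7.97 and 8.38 on pine, against 10.41, 10.18 and 9.96 on aspen and 9.90, 10.30 and 9.91 on wheat straw. Its highest values were 11.76, 11.73 and 10.91 on xylan-galactomannan, with 10.62, 10.69 and 10.35 on maltose and 11.24, 10.96 and 10.69 on Avicel. All 3 pine libraries of this gene model lay at least 1.51 log2 below its other libraries. 1420094 was similar, with 7.09, 7.08 and 6.96 on pine and no other library below 8.63. 1407309 had 8.85, 8.73 and 8.97 on pine and no other library below 10.55. 1448972 had 8.33, 8.09 and 7.99 on pine and between 9.79 and 10.78 elsewhere. In these 4 members the pine values spread by 0.07 to 0.21 log2 (SD, n = 3), well under the gaps of 3.44- to 3.67-fold.

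Other members had a wide spread on pine. 1402589 had 7.90, 7.76 and 6.01 on pine, and its gap of 1.85 log2 was 1.25, under the limit, without replicate 3. 1427329 had 6.75, 5.43 and 5.94 on pine. 1381215 had 8.40, 6.92 and 8.02 on pine, and its lowest other library was wheat straw replicate 2 at 9.01. In these 3 members the highest pine library and the lowest other library were 0.47 to 0.77 log2 apart. 1452677 lay between these extremes, with 8.70, 8.06 and 8.19 on pine and no other library below 9.91. 1431291 was tight on pine, at 7.65, 7.67 and 7.74, and variable on xylan-galactomannan, at 9.98, 11.45 and 8.58, so its level there (SD 1.43) is known only loosely.

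**Figure D2:**
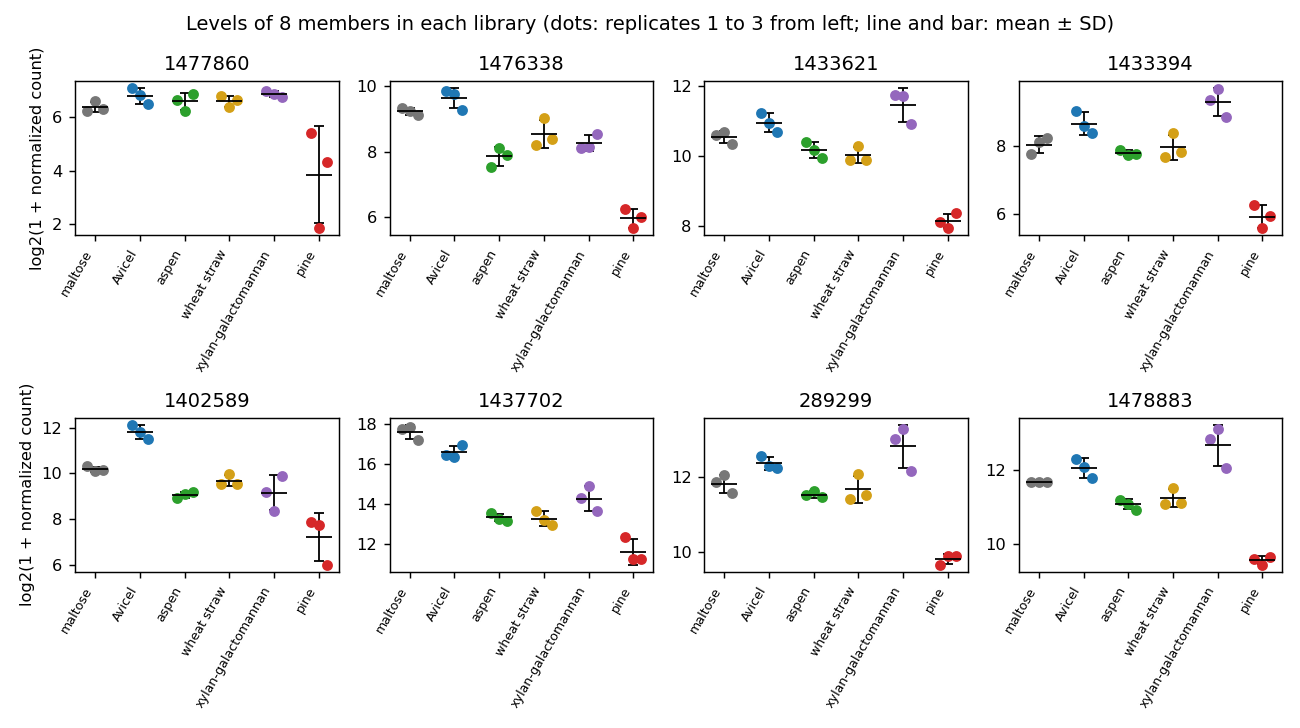
Log2 read counts of the 5 members with the largest gap and the 3 others with the highest RPKM over the other carbon sources, by carbon source. Dots are libraries (replicates 1 to 3 from the left), the line and bar are the mean ± SD (n = 3), and each panel has its own axis, which does not start at 0; in every panel the 3 pine libraries are the lowest, although 1477860 and 1402589 spread widely on pine.

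The most abundant member was 1437702. Levels of different gene models were compared as RPKM, the deposited counts per mappable length and library total, since counts grow with gene length. The RPKM of 1437702 was 8034 ± 959 on maltose and 4651 ± 854 on Avicel (SD, n = 3). It was 388 ± 54.5 on aspen, 466 ± 113 on wheat straw and 938 ± 357 on xylan-galactomannan, and 105 ± 57.4 on pine. It ranked between place 6 and place 8 of all gene models on maltose and between place 899 and place 1800 on pine. Its log2 read counts were 17.78, 17.88 and 17.23 on maltose, 16.49, 16.36 and 16.95 on Avicel, 14.30, 14.90 and 13.65 on xylan-galactomannan, 13.56, 13.29 and 13.18 on aspen, 13.67, 13.23 and 12.95 on wheat straw and 12.37, 11.25 and 11.25 on pine. The maltose, Avicel and pine libraries each stood apart from all others, while those of aspen and wheat straw overlapped and xylan-galactomannan replicate 3 lay just below wheat straw replicate 1. It spanned 4.34 log2 over the other 5 carbon sources, more than any other member (the next was 1402589 at 2.73), and much more than its gap to pine.

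The remaining members were of moderate or low abundance. The next in RPKM over the other carbon sources were 289299, 1478883, 1386843, 1407309, 1360318, 1431291 and 1433621. For 289299 the RPKM was 464 ± 143 on xylan-galactomannan, 344 ± 57.5 on Avicel and 38.7 ± 1.72 on pine. For 1478883 it was 388 ± 118 on xylan-galactomannan, 257 ± 56.4 on Avicel and 29.4 ± 3.18 on pine. Without xylan-galactomannan replicate 3 the mean RPKM on that medium was 541 for 289299, 452 for 1478883 and 1097 for 1437702. The median RPKM of the members was 44.2 on Avicel, 40.8 on xylan-galactomannan, 30.7 on maltose, 23.3 on wheat straw, 16.7 on aspen and 4.46 on pine. RPKM are relative to the library total, a scaling under which pine values come out lower than with size factors.

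The members together took 0.670 to 0.785% of the counts in the maltose libraries and 0.0248 to 0.0397% in the pine libraries. Most of the former was 1437702 alone. Without it the other 35 members took 0.121 to 0.149% on maltose, 0.169 to 0.257% on Avicel, 0.0866 to 0.0964% on aspen, 0.108 to 0.145% on wheat straw, 0.167 to 0.215% on xylan-galactomannan and 0.0195 to 0.0269% on pine.

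**Figure D3:**
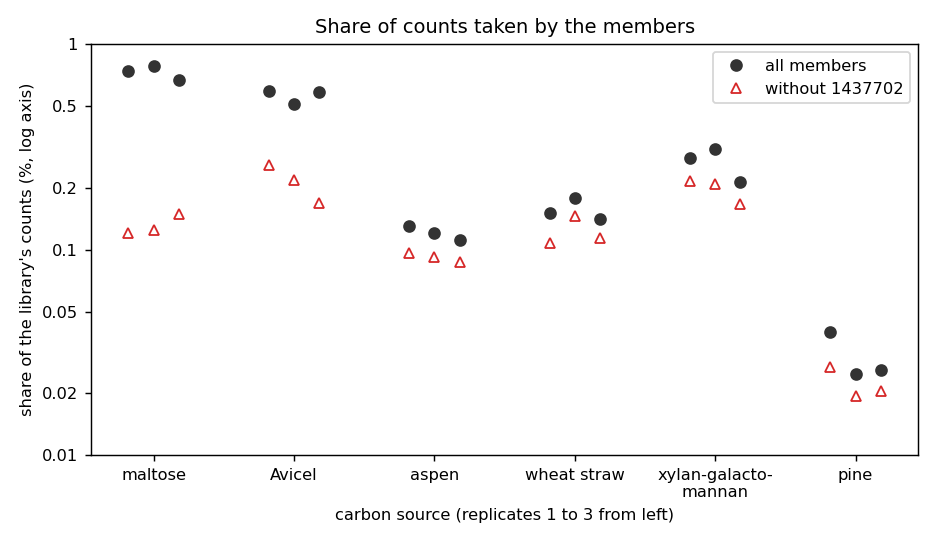
Share of each library's counts (%, log axis) taken by all 36 members (filled circles) and by the members without 1437702 (open triangles), by carbon source, 3 libraries each (replicates 1 to 3 from the left). The pine libraries hold 0.0248 to 0.0397% with 1437702 and 0.0195 to 0.0269% without it, below all other libraries in both sets.

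Over the other 5 carbon sources, aspen and wheat straw tended to be the low end of the members' profiles and Avicel and xylan-galactomannan the high end. After pine, the lowest level was on aspen in 23 members (63.9%), beside 18.2% of the 8671 gene models, and on wheat straw in 7 (19.4%), beside 15.1%. It was on maltose in 3 (8.33%, beside 21.7%), on xylan-galactomannan in 2 (5.56%, beside 24.8%) and on Avicel in 1 (2.78%, beside 20.3%). The highest level was on Avicel in 20 members (55.6%), beside 22.4%, on xylan-galactomannan in 13 (36.1%), beside 21.5%, and on maltose in 3 (8.33%), beside 25.7%. No member was highest on aspen or wheat straw, beside 16.9% and 13.4% of the gene models. Without xylan-galactomannan replicate 3, 18 members were highest on xylan-galactomannan, 16 on Avicel and 2 on maltose, so which of the first 2 was more often highest turned on that library, while aspen was still the lowest in 22. No single order held for most members. The most frequent one, from xylan-galactomannan through Avicel, maltose and wheat straw down to aspen, was that of 7 members (19.4%), beside 1.22% of the gene models. The differences were often small. The members spanned a median of 1.15 log2 over the 5 carbon sources, against 1.30 for the 8671 gene models, and in 5 members the span was larger than the gap to pine.

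Of the comparisons without pine, 6 were tested with edgeR's quasi-likelihood test with Benjamini-Hochberg adjustment over 11168 gene models. They were the 4 with maltose, aspen against Avicel and aspen against wheat straw. Wheat straw against Avicel, and xylan-galactomannan against Avicel, aspen or wheat straw, were not tested. The rule set no condition on differences among these carbon sources. It did use their levels, each of which had to be at least 6 and at least 1.5 log2 above pine. The calls and shares below are therefore not independent of the rule. A member was called when its adjusted p was under 0.05 and its fold change over 1 log2 in size. The 4 comparisons with maltose share the maltose libraries, so each is given on its own. On Avicel against maltose, 2 members were called higher, beside 14.6% of all gene models, and 0 lower, beside 14.6%. The median log2 fold change of the members was 0.49, beside 0.10 for all gene models. For the count of 0, edgeR gave 2 members lower at an unadjusted p under 0.05, and DESeq2 called 1.

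The pair that rose on Avicel was 1402589 and 1410653. 1402589 had log2 read counts of 12.13, 11.80 and 11.49 on Avicel and 10.32, 10.10 and 10.15 on maltose. It rose by 1.69 log2 (SE 0.37, adjusted p = 0.00107 by edgeR). 1410653, a weakly transcribed member, had 9.21, 8.50 and 8.79 on Avicel and 7.16, 7.42 and 7.40 on maltose. It rose by 1.59 (SE 0.31, adjusted p = 0.000359 by edgeR). In both the Avicel and maltose libraries did not overlap.

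On aspen against maltose, 7 members (19.4%) were called lower, beside 14.4% of all gene models, and 0 higher, beside 19.7%. The share called lower was near that of all gene models. Those lower on aspen were 1437702, 236998, 1476338, 1427329, 1474575, 1402589 and 1362523. 1437702 had a log2 fold change of -4.29 (SE 0.38, adjusted p = 3.66e-08 by edgeR). 236998 had log2 read counts of 7.74, 7.28 and 7.17 on aspen and 9.30, 9.39 and 8.90 on maltose, a log2 fold change of -1.78 (SE 0.26, adjusted p = 1.24e-05 by edgeR). The median log2 fold change of the members was -0.48, beside 0.00 for all gene models. For the count of 0 higher, 1 member passed an unadjusted p under 0.05 in edgeR, and DESeq2 called 0.

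On wheat straw against maltose, 1437702 and 236998 were called lower, 2 members beside 12.4% of all gene models, and 0 were called higher, beside 17.7%. 1437702 had a log2 fold change of -4.29 (SE 0.38, adjusted p = 4.09e-08 by edgeR), as on aspen. 236998 had 7.94, 7.42 and 7.12 on wheat straw and a log2 fold change of -1.63 (SE 0.25, adjusted p = 3.15e-05 by edgeR). For the count of 0, no member was higher at an unadjusted p under 0.05 in edgeR (0 members), and DESeq2 called 0. Without wheat straw replicate 1, 4 members were called lower.

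On xylan-galactomannan against maltose, 6 members (16.7%) were called higher, beside 19.4% of all gene models, and 1 lower, beside 14.5%. The 6 were 1360318, 1433394, 69019, 1478883, 289299 and 1410653. 1360318 had log2 read counts of 10.71, 10.83 and 9.89 on xylan-galactomannan and 9.23, 9.25 and 9.05 on maltose, and it rose by 1.38 (SE 0.23, adjusted p = 8.03e-05 by edgeR). 1433394 had 9.35, 9.66 and 8.85 on xylan-galactomannan and 7.77, 8.12 and 8.23 on maltose, and it rose by 1.30 (SE 0.25, adjusted p = 0.000267 by edgeR). 1478883 had 12.85, 13.12 and 12.05 on xylan-galactomannan and 11.69, 11.67 and 11.68 on maltose, and it rose by 1.08 (SE 0.22, adjusted p = 0.0004 by edgeR). In all but 1410653 the libraries of both media did not overlap. The member that fell was 1437702, with a log2 fold change of -3.26 (SE 0.37, adjusted p = 6.33e-07 by edgeR).

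The xylan-galactomannan values rest on libraries that differed. Replicate 3, the library with the conflicting label, was below both others in 28 of 36 members, with a median difference of -0.39 log2 from their mean, and above both in 3. In 27 members it lay between the wheat straw mean and the nearer of the other xylan-galactomannan libraries. Which of its labels is right was not tested. Without replicate 3, 9 members were called higher and 3 lower, the 9 including all 6. The log2 fold changes were then 1.60 (SE 0.218) for 1360318, 1.47 (SE 0.255) for 1433394, 1.46 (SE 0.193) for 69019, 1.35 (SE 0.275) for 1410653, 1.31 (SE 0.185) for 1478883 and 1.30 (SE 0.210) for 289299, and -3.02 (SE 0.400) for 1437702. Those added to the higher set were 1433621, 1386843 and 1373139. Without replicate 2, 3 members were called higher and 2 lower. In 4 members it was replicate 2 that stood low, by over 0.7 log2 below the other 2 libraries. These were 765112, with 10.13, 8.05 and 10.01, 1370466, with 9.80, 8.66 and 10.50, 1402589, with 9.20, 8.37 and 9.91, and 1431176, with 12.33, 11.51 and 12.27.

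The largest count was on aspen against Avicel, a comparison of media that held the same amounts of maltose and of substrate. In it 18 members (50.0%) were called lower on aspen, beside 10.6% of all gene models, and 0 were called higher, beside 14.6%. In all, 35 of 36 members had a log2 fold change below 0, with a median of -0.97 beside -0.05 for all gene models. At an adjusted p under 0.05 and any fold, 30 members were lower on aspen, beside 21.8% of all gene models. For the count of 0, no member was higher at an unadjusted p under 0.05 in edgeR (0 members), and DESeq2 called 0. Many of the 18 lay close to the limit of 1 log2, and the count was 11 without Avicel replicate 1, 5 with Bonferroni adjustment and 28 with library totals in place of TMM factors.

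The members that fell most on aspen against Avicel were 1437702, by 3.32 log2 (SE 0.37, adjusted p = 1.42e-06 by edgeR), and 1402589, by 2.80 (SE 0.39, adjusted p = 1.74e-05 by edgeR). 1402589 had 8.92, 9.11 and 9.19 on aspen, more than 2 log2 below its Avicel libraries. 1476338 came next, with 7.55, 8.13 and 7.91 on aspen and 9.85, 9.78 and 9.28 on Avicel. It fell by 1.82 (SE 0.25, adjusted p = 1.31e-05 by edgeR), and its libraries on pine, at 6.25, 5.67 and 6.01, were lower still. 1381215 had 9.93, 9.86 and 9.86 on aspen and 11.32, 11.14 and 11.27 on Avicel, and fell by 1.40 (SE 0.28, adjusted p = 0.000604 by edgeR). 1431291 was the 1 member above 0, with 10.35, 10.17 and 10.25 on aspen and 9.54, 9.34 and 9.41 on Avicel. These libraries did not overlap, yet the log2 fold change of 0.78 (SE 0.43) did not pass the edgeR test (adjusted p = 0.155).

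Between the hardwood and the grass no member passed the limits. On aspen against wheat straw 0 members were called higher, beside 6.43% of all gene models, and 0 lower, beside 4.26%. At an unadjusted p under 0.05, edgeR gave 1 member higher and 3 lower, and DESeq2 called 0 in both directions. The median log2 fold change was -0.19, with a range from -0.75 to 0.82. Without wheat straw replicate 1, 1 member was called higher on aspen.

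**Figure D4:**
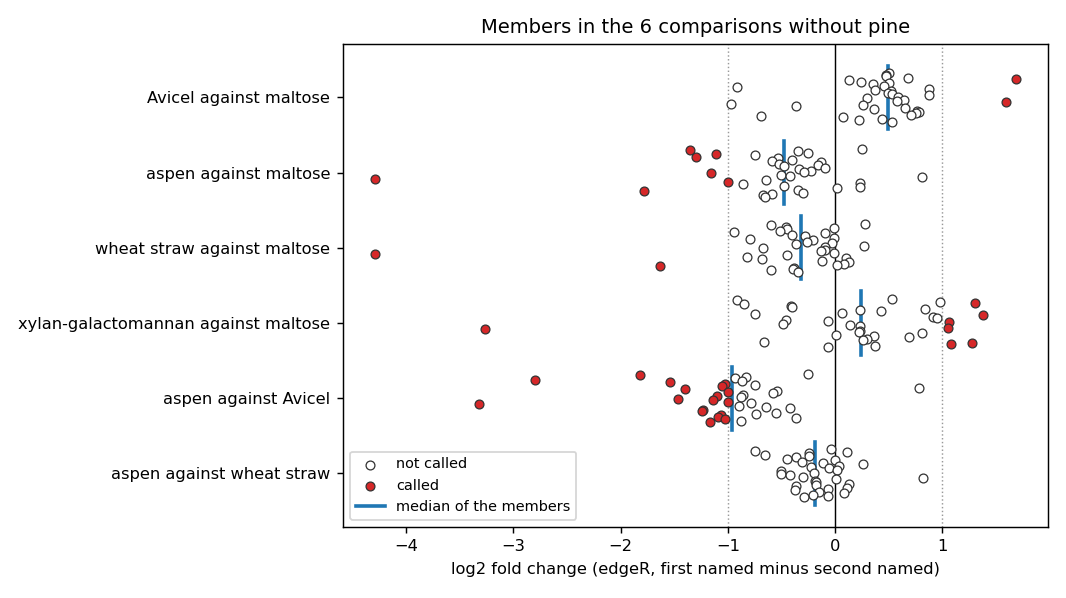
Log2 fold changes (edgeR) of the 36 members in the 6 tested comparisons without pine. Each point is a member, filled where it was called. The blue line is the median of the members and the dotted lines mark a fold change of 1 log2 in either direction. The medians run from -0.97 for aspen against Avicel to 0.49 for Avicel against maltose, and the points far to the left at -3.26 to -4.29 are 1437702.

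A set of 12 members (33.3%) was called in none of these 6 comparisons, beside 37.7% of all gene models. This does not show that they were level over the other 5 carbon sources, since some pairs were not tested. 1433621, 1 of the 12, had a level of 11.47 on xylan-galactomannan and 10.04 on wheat straw, an untested pair. Called in none of the 4 comparisons with maltose were 23 members (63.9%), beside 42.7%. Among the 12 was 1477860, described above, with log2 fold changes between -0.25 and 0.53 and SEs of 0.41. 1448972 was also among them, with its largest difference on aspen against Avicel at -0.75 (SE 0.19, adjusted p = 0.00327 by edgeR, under 1 log2 in size). 1386843 was just under the limit of 1 log2 on xylan-galactomannan against maltose, at 0.95 (SE 0.21, adjusted p = 0.000814 by edgeR), with log2 read counts of 11.73, 12.02 and 11.02 against 10.78, 10.90 and 10.47. Its libraries on pine were at 8.84, 8.80 and 9.09. Without xylan-galactomannan replicate 3, this member and 1433621 passed that limit, at 1.16 and 1.19.

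The members were somewhat short. Their gene models had a median length of 1017 bases, from 225 bases in 1362523 to 4187 bases in 1402589, against 1509 bases for the 8671 gene models, and 3 members (8.33%, against 3.92%) were shorter than 500 bases. In 8 members less than 80% of the length was listed as mappable, so reads shared with near-identical sequence elsewhere may be missing or split and their counts are less certain. The lowest was 1435177 at 24.4%, followed by 1386843 at 61.3%, 1452677 at 72.4%, 1407309 at 76.2% and 236998 at 77.3%, with 289299, 69019 and 1360318 at 79.4 to 79.6%. Over all members the median mappable share was 94.3%, against 95.3% for the 8671 gene models.

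All 36 members matched a locus tag in RefSeq's gene table for the Pycco1 assembly, and no 2 of them were adjacent. The closest were 1370466 and 1478883, with 3198 bases and 1 gene model between them. That gene model, 1392821, was not low on pine, with a level of 9.75 there and of 9.12 on aspen, its lowest. 1370466 and 1478883 also differed from each other, since the former was highest on Avicel and the latter on xylan-galactomannan. The next closest were 1476329 and 1476338, with 10 gene models and 20059 bases between them.

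The study's tables name 58 carbohydrate-active enzyme genes, and these were set beside the members; whether any member encodes such an enzyme is not known here. Of the 58 (glycoside hydrolases, esterases, lyases and auxiliary activities), 0 were members, beside 36 of all 12690 gene models. By edgeR, 0 were called lower on pine against all 5 other carbon sources, beside 2.37% of all gene models tested. Both counts of 0 are near those shares, so nothing about these genes is read from them. Against maltose, 51 of the 58 were called higher on pine, beside 21.9% of all gene models, and 0 lower, beside 18.1%. Against Avicel, 26 were higher, beside 22.0%, and 21 lower, beside 20.7%. Against aspen, 9 were higher, beside 8.85%, and 17 lower, beside 7.77%. Against wheat straw, 14 were higher, beside 11.0%, and 4 lower, beside 10.6%. Against xylan-galactomannan, 29 were higher, beside 18.5%, and 7 lower, beside 18.1%. These tables were chosen by the study on the same libraries for high transcription on plant substrates, so their direction is not independent evidence. None of the 36 members is among the 289 genes of the study's selected lists. Those lists asked for higher transcription on a plant substrate than on maltose. The rule shuts this out on pine, so the absence from the pine list was fixed in advance. For aspen and wheat straw the rule did not fix it. No member was called higher there against maltose, beside 19.7% and 17.7% of all gene models. The lists also asked that a gene's cluster be highly transcribed on the plant substrate and not on maltose or Avicel. Nothing is read from the absence.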

How the data were processed

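RNA of Pycco 310 was sequenced from 18 cultures. The authors used JGI's QC pipeline for read trimming, TopHat 2 for alignment and HTSeq for counting on the Pycco1 gene models; the submitters' processing notes also name DESeq 1.5. The deposited raw counts (12690 gene models, 773 with no count) were used for levels and tests. The deposited RPKM, which the authors made from these counts, the mappable length and the library total (largest relative difference 5.1e-15 over 11862 gene models), were used to compare gene models. No values were pooled, and 0 columns were left unmatched.

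Levels used median-of-ratios size factors over 18 libraries from gene models without a zero. Tests used edgeR 4.0.16 in R 4.3.3 (limma 3.58.1) with TMM factors, filterByExpr, glmQLFit and glmQLFTest in 1 fit of all libraries, with Benjamini-Hochberg adjustment; the SE is the absolute log2 fold change divided by the square root of F. All 36 members passed the filter on low counts. Replicates differed by more than sampling noise (chi-square per degree of freedom 24.3 to 374). Tested on simulated data for aspen against maltose (11086 gene models, 200 changed by 2 log2), 96.5% were recovered with 13 false calls. No changes near the limit of 1 log2 were simulated, so the recovery does not bear on calls close to that limit. The 200 were drawn only from gene models above a limit on the mean count, so the recovery does not bear on weakly transcribed ones. All other gene models were given the same mean on every carbon source. Python 3.11.15 and matplotlib 3.10.9 were used for levels and plots.

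The members, lists and tests were chosen with earlier results of these data known. Gene models were named by rule: the 12 largest gaps, the 8 highest RPKM, the 2 largest called rises and falls in each tested comparison without pine, and the 3 nearest the limit on either side. Others were named after their values were seen. Lists by product name could not be applied, since the annotation used holds no product names. Alternatives were RLE factors, DESeq2 1.42.0, no filter, Bonferroni adjustment, only the groups compared, a replicate block, other limits and level definitions, leaving out each library and, added after seeing the data, library totals.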

Additional observations from a re-analysis of the deposited data

How the results depend on the processing

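The number of gene models lowest on pine was 251 with a gap of 1.0, 1 with a gap of 2.0 and 168 with library totals, and 28 to 47 under the other definitions; leaving out 1 library gave 33 to 77, the highest without pine replicate 1. The cause was not tested beyond the looser or stricter limit itself. Under library totals the gaps of 15 of 36 members grew by more than their spread, none reversed, and the median gap was 2.00. Bonferroni adjustment gave 0 members higher on Avicel and 0 on xylan-galactomannan against maltose, 3 lower on aspen against maltose and 5 lower on aspen against Avicel. RLE factors, DESeq2 and only the groups compared each gave 1 member lower on Avicel against maltose. Library totals gave 28 members lower on aspen against Avicel and 1 on aspen against wheat straw; with them all gene models split 10.4% higher and 18.6% lower on aspen against Avicel (median -0.32), and 4.17% and 9.23% on aspen against wheat straw, while on Avicel against maltose they split 18.4% and 11.7%, on wheat straw against maltose 20.7% and 10.1% and on xylan-galactomannan against maltose 22.0% and 11.8%.

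Leaving out 1 library gave, on Avicel against maltose, 2 members higher throughout and 0 to 1 lower (1 without maltose replicate 3 or Avicel replicate 3), and 6 to 7 lower on aspen against maltose. It gave 2 to 4 lower on wheat straw, and 3 to 9 higher and 1 to 3 lower on xylan-galactomannan against maltose. On aspen against Avicel it gave 11 to 21 lower, and on aspen against wheat straw 0 to 1 higher and 0 lower. Replicate numbers did not pair the libraries (correlations of deviations -0.207 to 0.464, with all 3 over 0.1 in 0 of 15 pairs of groups). With a replicate block 6 members were lower on aspen against maltose and 16 on aspen against Avicel, and no other count changed. Of 143 alternative values for the 11 named fold changes, 139 kept their call and 4 fell short under Bonferroni adjustment (1402589 and 1410653 on Avicel, 1360318 and 1433394 on xylan-galactomannan), none reversed. Depth limited 1477860 most, with a raw count of 2 in a pine library.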
